A study of Mus musculus with 36 samples.

Results

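The genes described here are the adult haemoglobin genes Hba-a1, Hba-a2, Hbb-bs, Hbb-bt and Hbb-b2 together with Alas2, taken by symbol, with no threshold on their values: 6 of the 24421 gene symbols measured in mouse hippocampus by polyA RNA sequencing. All 6 passed the filter on low values in every comparison. The study held 36 libraries in 6 groups, each of 3 females and 3 males. In the aging arm, C57BL/6 mice were sampled at 8 months (young), at 18 months (old) and at 18 months after treatment with a nanoligomer (treated old). In the transgenic arm, all mice were 4 months old: "non-carrier" littermates, untreated APP/PS1 mice and nanoligomer-treated APP/PS1 mice. APP/PS1 mice carry transgenes for amyloid precursor protein and presenilin 1 and are used as a model of amyloid deposition, and the series' title names NF-kB and NLRP3 as what was lowered. The labels give neither the APP/PS1 line and its promoter, nor the strain of the littermates, nor the dose, route and length of treatment. The third female of the treated APP/PS1 group was left out, so that this group has 5 libraries.

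Adult haemoglobin is a tetramer of alpha chains, encoded by Hba-a1 and Hba-a2, and beta chains, encoded by Hbb-bs and Hbb-bt in the haplotype of C57BL/6 mice; the symbols Hbb-b1 and Hbb-b2 name the beta genes of another haplotype. Each chain holds a haem group, and Alas2 encodes the erythroid form of 5-aminolaevulinate synthase, the first enzyme of haem synthesis. Red cell precursors make these transcripts in bulk and young red cells still carry them. In dissected brain they are commonly used to gauge how much blood is in the sample, although neurons and glia have also been described to express some of them.

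Before the levels, the sequences show how far these symbols can be told apart. On GRCm38 with GENCODE M21, the alpha genes are neighbours on the plus strand, Hba-a1 at chr11:32283511-32284465 and Hba-a2 at chr11:32296489-32297298. The beta genes lie on the minus strand, Hbb-bt at chr7:103812524-103813996 and Hbb-bs at chr7:103826534-103828096, and Alas2 lies at chrX:150547375-150570638 on the plus strand. Hbb-b2 is named only. The coding sequences of Hba-a1 and Hba-a2 are both 429 bases long and differ at 1 base, C381T, counted from the A of the start codon with the Hba-a1 base first. Those of Hbb-bs and Hbb-bt are both 444 bases long and differ at C417T alone, with the Hbb-bs base first. The stretches around these differences are shown 5′ to 3′ from the GENCODE transcripts, from base 351 to 410 of the alpha and from base 387 to 444 of the beta coding sequences, with the differing base in capitals.
Hba-a1: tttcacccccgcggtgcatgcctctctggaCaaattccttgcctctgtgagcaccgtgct
Hba-a2: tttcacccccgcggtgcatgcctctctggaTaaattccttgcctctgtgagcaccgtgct
Hbb-bs: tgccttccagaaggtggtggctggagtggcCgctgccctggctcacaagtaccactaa
Hbb-bt: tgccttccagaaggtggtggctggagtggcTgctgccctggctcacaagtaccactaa
Of all 100-base windows of the Hba-a1 transcript, 56.5% occur unchanged in that of Hba-a2. Of the Hbb-bt windows 54.8% occur unchanged in the transcript of Hbb-bs, and of the Hbb-bs windows 62.6% in that of Hbb-bt. Within the coding sequences alone, the shares were 85.2% for Hba-a1 in Hba-a2 and 91.9% for Hbb-bs in Hbb-bt.

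Several of these symbols held nearly the same counts, and the cause was not tested. In 35 libraries, the reads given to Hba-a1 and Hba-a2 were identical in 9 and differed by at most 3.57% elsewhere, with totals of 53490 and 53269. Hbb-b2 held the reads of Hbb-bt plus 0 to 27 more, with totals of 5496 and 5301. Hbb-b1, which is not among the 6 genes, repeated Hbb-bs in the same way, at 57932 against 57723. The excess of Hbb-b1 over Hbb-bs and of Hbb-b2 over Hbb-bt was the same number of reads in 17 of the 35 libraries and differed by at most 4 reads. The 6 symbols therefore held 4 separate measurements, an alpha count, the Hbb-bs count, the Hbb-bt count and Alas2, and Hba-a2 and Hbb-b2 are not further evidence for what Hba-a1 and Hbb-bt show. How reads matching both Hbb-bs and Hbb-bt were divided is not given in the sources used here, so the level of either gene alone is uncertain.

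The promoters are shown because these genes varied together from library to library, as described further on. Whether the promoters have a part in this was not tested. The 120 bases before each RefSeq start (GRCm38.p6) are given 5′ to 3′ on the strand of the gene, at chr11:32283552-32283671 (plus), chr7:103827929-103828048 (minus), chr7:103813924-103814043 (minus) and chrX:150547297-150547416 (plus). Capitals mark the TATA box word TATAA, the CCAAT box word, the CACCC box word and a GATA site, taken as AGATAA, its variant AGATAG, or either with T as the first base. All were searched on both strands. By the GENCODE coordinates given above, the Hba-a1 and Hbb-bs windows lie inside the genes, and the Hbb-bt and Alas2 windows overlap them in part. RefSeq and GENCODE thus place the starts differently.
Hba-a1: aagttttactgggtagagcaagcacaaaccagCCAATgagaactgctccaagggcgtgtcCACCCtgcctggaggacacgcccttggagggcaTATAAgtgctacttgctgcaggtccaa
Hbb-bs: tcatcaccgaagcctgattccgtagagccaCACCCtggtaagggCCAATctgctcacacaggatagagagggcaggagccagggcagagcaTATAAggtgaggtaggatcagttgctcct
Hbb-bt: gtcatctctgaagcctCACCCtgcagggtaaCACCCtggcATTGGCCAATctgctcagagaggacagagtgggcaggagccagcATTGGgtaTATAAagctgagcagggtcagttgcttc
Alas2: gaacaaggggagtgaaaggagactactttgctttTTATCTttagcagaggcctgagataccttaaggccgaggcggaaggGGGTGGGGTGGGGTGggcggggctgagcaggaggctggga
The Hba-a2 promoter shares a run of 247 bases with that of Hba-a1 and is not repeated. Each of these globin promoters held the TATA, CCAAT and CACCC box words together, a combination found in 0.688% of 32851 promoter windows of the same length. TATAA began 27 to 30 bases before the start in all 4 globin promoters. In Hbb-bt, 2 of the 3 CCAAT matches were on opposite strands and adjoined each other. The Alas2 window held CACCC on the minus strand, 3 times in a run, and AGATAA on the minus strand 86 bases before the start, and neither TATAA nor CCAAT. On their own, TATAA was found in 11.8%, CCAAT in 21.3%, CACCC in 31.7% and a GATA word in 12.8% of the windows. These are matches of letters and were not tested as binding sites.

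Levels are given as reads per 1000000 gene-assigned reads (CPM), and depth in units of 1000000 reads (M). Depth was 27.6 to 46.3 M in 35 libraries, with a median of 39.3 M. The third treated APP/PS1 female held 0.913 M and none from any of the 6 genes, which allows a level of up to 3.28 CPM for each at the floor of 3 reads; the lowest Hbb-bs level among the other 5 libraries of its group was 16.8 CPM. Among 10 markers of hippocampal neurons, the summed level was 10321 to 13722 CPM in 33 libraries but 6531 in young male 1 and 5176 in untreated APP/PS1 female 1. Slc17a7, the vesicular glutamate transporter of hippocampal excitatory neurons, stood at 491 and 67.7 CPM in these libraries against 1075 to 2125 in the rest. Both libraries were kept. Group differences of Hba-a1, Hbb-bs and Alas2 are also given without them, while those of the marker lists are not. App was 1.08 ± 0.112 (SE) higher on the log2 scale in APP/PS1 than in littermates (limma adjusted p = 0.00162). The treatment comparisons found Nfkb1 at -0.09 ± 0.0916 and Nlrp3 at 0.16 ± 0.293 in old mice, and Nfkb1 at -0.06 ± 0.110 and Nlrp3 at 0.0020 ± 0.334 in APP/PS1 mice, with limma adjusted p of 0.816 or more.

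Per length of annotated exon, Hbb-bs and the alpha genes stood at similar levels and Hbb-bt and Alas2 far below them. In young mice the median was 84.7 CPM per kilobase for Hbb-bs, 66.6 for Hba-a1, 7.61 for Hbb-bt and 2.37 for Alas2. The reads of Hba-a1, Hbb-bs and Hbb-bt added together made up 0.00309% to 0.0208% of a library.

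Median levels of the alpha count lay further apart between the arms than within either arm. Hba-a1 held 23.9 to 70.8 CPM in young mice (median 46.6), 24.3 to 103 in old mice (49.5) and 35.8 to 85.3 in treated old mice (45.3). It held 21.3 to 34.2 in littermates (29.0), 14.2 to 32.5 in untreated APP/PS1 mice (19.8) and 16.0 to 54.1 in the treated ones (27.9). Between neighbours in the order of the medians, the ranges of treated old mice and littermates alone did not overlap. Hba-a2 repeated these values, with medians of 46.6, 49.4, 45.2, 29.0, 19.7 and 27.9 in the same order of groups.

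Hbb-bs, the more abundant beta gene, followed the same order of arms. It held 24.2 to 69.1 CPM in young mice (median 53.2), 28.4 to 97.0 in old mice (56.3) and 38.9 to 106 in treated old mice (54.5). It held 22.6 to 31.8 in littermates (31.5), 15.3 to 36.0 in APP/PS1 mice (21.7) and 16.8 to 48.3 in treated APP/PS1 mice (25.1). Littermates were the most even group, with an SD of 3.77 CPM (n = 6) against 8.78 in APP/PS1 mice (n = 6), and every pair of neighbouring groups overlapped.

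Hbb-bt, the less abundant beta gene, held 2.38 to 7.39 CPM in young mice (median 5.35), 2.61 to 7.92 in old mice (4.99) and 3.34 to 10.8 in treated old mice (5.58). It held 1.47 to 2.92 in littermates (2.08), 0.699 to 2.31 in APP/PS1 mice (1.55) and 1.68 to 3.55 in treated APP/PS1 mice (2.05). Hbb-b2 ran from 0.699 to 11.5 over all 35 libraries. The lowest Hbb-bt level rested on 26 reads and the highest on 442, whereas Hbb-bs rested on 550 to 4325 reads.

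Alas2 held 2.03 to 6.09 CPM in young mice (median 4.83), 2.45 to 7.96 in old mice (6.03) and 2.92 to 8.82 in treated old mice (5.76). It held 1.85 to 3.35 in littermates (2.52), 1.06 to 3.34 in APP/PS1 mice (1.63) and 1.52 to 3.26 in treated APP/PS1 mice (2.81). Within APP/PS1 mice, female 1 held 3.34 and the other 5 held 1.83 or less.

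Across arms, the median over the 18 aging-arm libraries was 1.67 times that over the 17 transgenic-arm libraries for Hba-a1, 2.02 times for Hbb-bs, 2.85 times for Hbb-bt and 2.39 times for Alas2. For Hbb-bt and Alas2, 15 of the 18 aging-arm libraries lay above every transgenic-arm library; for Hbb-bs this held for 11 and for Hba-a1 for 7. The arms differ in age and in genotype label, which cannot be told apart, so this difference was not tested. The levels are CPM, so the separate normalization of the tables does not enter them. In whole tissue, fewer cells of a type and less RNA per cell cannot be told apart either.

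**Figure D1:**
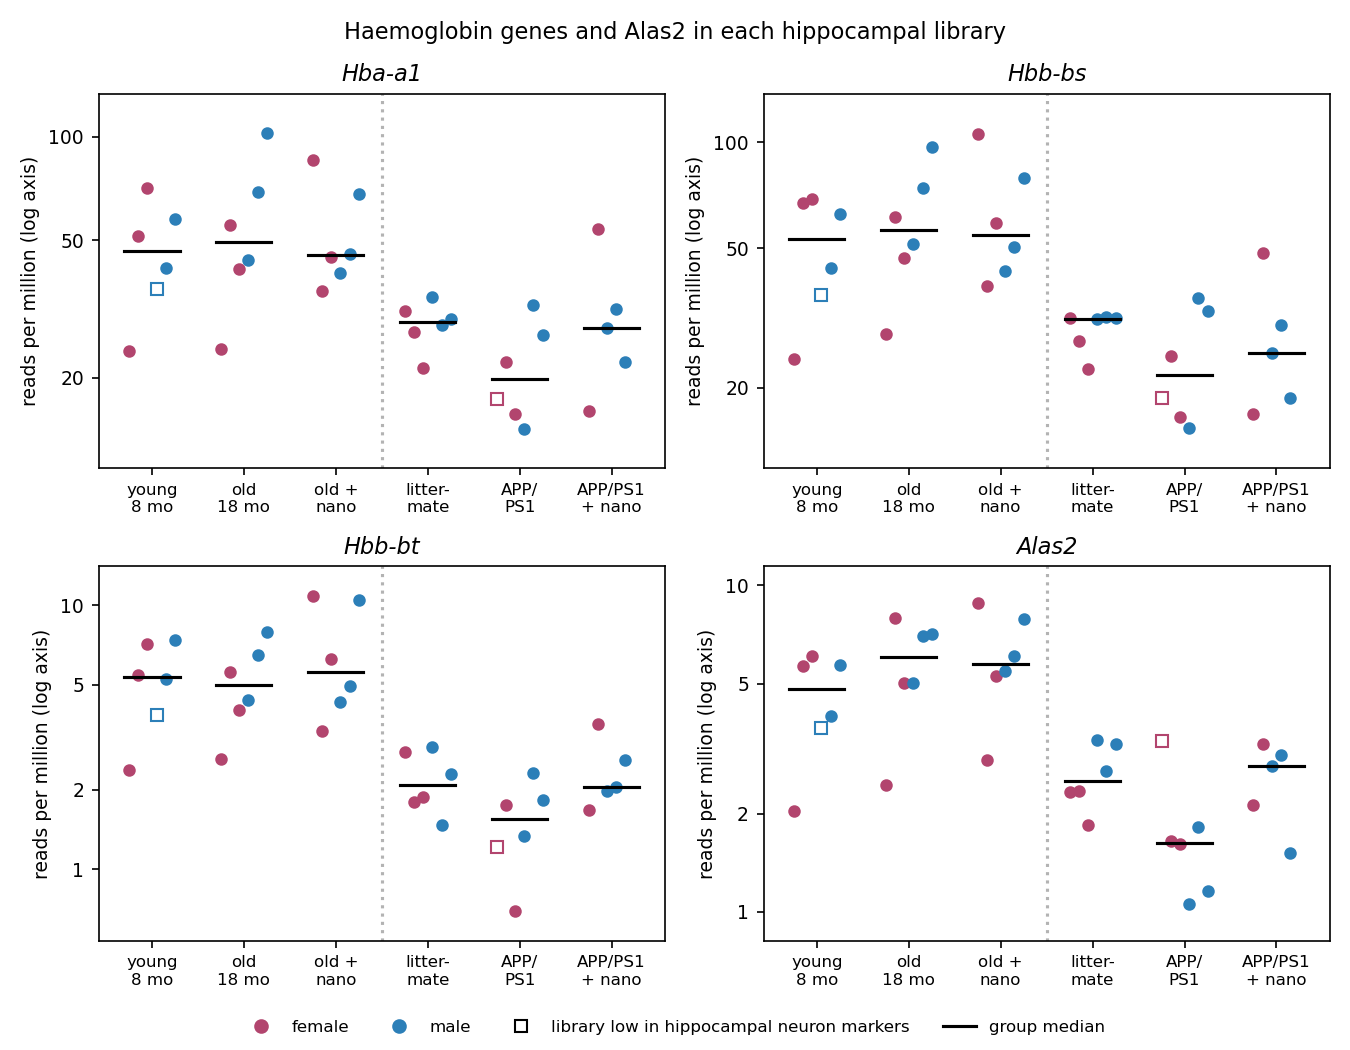
CPM (log axis) of Hba-a1, Hbb-bs, Hbb-bt and Alas2 in each library of the 6 groups, with group medians as lines; squares are young male 1 and untreated APP/PS1 female 1, and the dotted line separates the arms. Groups overlap within each arm for every gene, while 15 of 18 aging-arm libraries lie above all transgenic-arm libraries for Hbb-bt and Alas2.

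The ratio of Hba-a1 to Hbb-bs was steadier than the level of either gene. The 35 libraries spanned 7.23-fold in Hba-a1 and 6.91-fold in Hbb-bs, yet the ratio of Hba-a1 to Hbb-bs reads stayed between 0.764 and 1.19, with a median of 0.934. The median ratio was 0.963 in young, 0.891 in old and 0.887 in treated old mice. It was 0.965 in littermates, 0.914 in APP/PS1 mice and 1.11 in treated APP/PS1 mice. In treated APP/PS1 mice 4 of 5 libraries held more alpha than Hbb-bs reads, against 0 of 6 untreated APP/PS1 libraries, and the ranges met only at 0.949 (lowest treated) and 0.953 (highest untreated); this contrast was singled out after the values were seen and was not tested.

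Hbb-bt made up 4.07% to 12.2% of the reads of Hbb-bs and Hbb-bt together. The lowest share was in APP/PS1 female 3 (95% exact Clopper-Pearson interval 2.67% to 5.91%, 639 reads) and the highest in a treated APP/PS1 male (10.3% to 14.5%, 980 reads), so the spread was larger than counting error. Medians were 9.38% in young, 7.98% in old and 9.18% in treated old mice, and 7.22% in littermates, 6.05% in untreated APP/PS1 mice and 7.34% in those treated. Old mice were the most even, from 7.55% to 8.41%. Intervals cover counting error only.

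Alas2 held 0.0350 to 0.178 reads per Hbb-bs read. Group medians were lowest in untreated APP/PS1 mice, at 0.0678, and between 0.0855 and 0.1001 in the other groups. Both extremes were untreated APP/PS1 libraries: male 3 at 0.0350 (0.0248 to 0.0482, exact interval) and female 1 at 0.178 (0.146 to 0.217), the library with the lowest Slc17a7. Young mice spanned only 0.0840 to 0.0995.

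**Figure D2:**
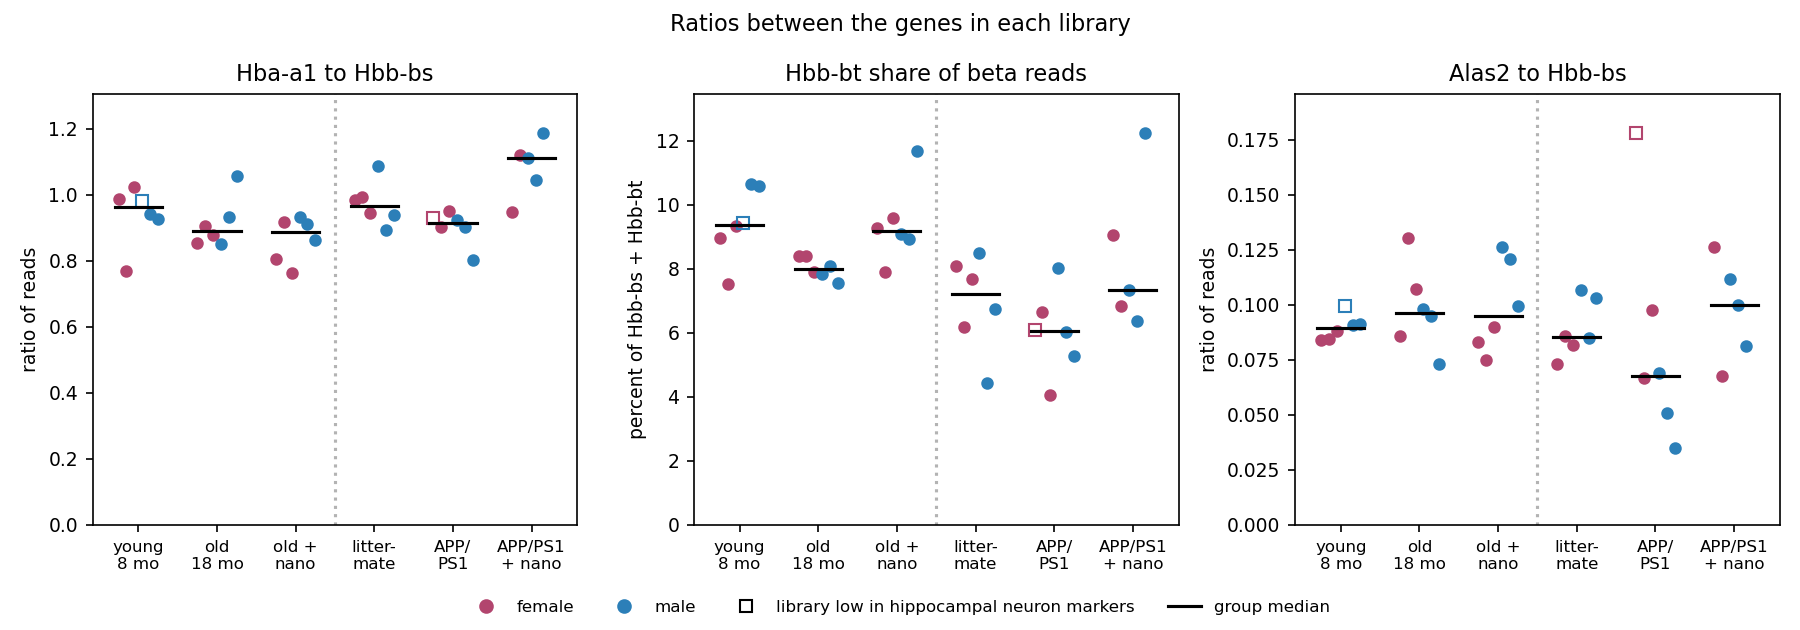
Ratio of Hba-a1 to Hbb-bs reads, share of Hbb-bt among Hbb-bs and Hbb-bt reads in percent, and ratio of Alas2 to Hbb-bs reads in each library, with group medians as lines and squares as in the plot of levels. Alpha to beta ratios lie between 0.764 and 1.19, and the highest Alas2 ratio, 0.178, belongs to untreated APP/PS1 female 1.

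Old and young hippocampus were compared for an effect of age. The 6 genes stood 0.0066 to 0.36 higher in old mice on the log2(normalized count + 1) scale, with Hbb-bt and Hbb-b2 lower by edgeR and DESeq2, and none passed limma's test. Hba-a1 was higher by 0.21 ± 0.315 (SE, n = 6 against 6, adjusted p = 0.937), Hbb-bs by 0.25 ± 0.304 (adjusted p = 0.924) and Alas2 by 0.36 ± 0.319 (adjusted p = 0.894). Hbb-bt differed by 0.01 ± 0.295 (adjusted p = 0.999). The 95% intervals, not adjusted for the number of genes, ran from 0.752-fold to 1.88-fold for Hbb-bs and from 0.794-fold to 2.07-fold for Alas2. They are not limits of what the adjusted test could detect. Among all 16626 genes tested, 6 (0.0361%) were called, against 0 of the 6 members, none of which had an unadjusted p under 0.05 with limma, edgeR or DESeq2. Without young male 1, Hba-a1 stood at 0.08, Hbb-bs at 0.11, Alas2 at 0.26 and Hbb-bt at -0.14, with limma adjusted p of 0.956 or more. Choroid plexus markers moved with this comparison: all 17 were lower in old mice, by a median of -1.96. Of them, 7 had an unadjusted limma p under 0.05 and none was called. Limma gave such a p to 1020 of all genes tested (6.13%). The summed level of this list ran from 41.2 to 4396 CPM in young and from 36.9 to 307 in old mice. All 11 neutrophil and monocyte markers tested were higher, by a median of 0.73, 3 with an unadjusted p under 0.05 and none called. All 10 hippocampal neuron markers also stood higher in old mice, by a median of 0.26, and all 3 erythroid markers tested, by a median of 0.50, with none called. Young male 1, low in the neuron markers, enters these values. The part of any of these marker lists in the differences of the 6 genes was not tested.

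In old mice, whose untreated libraries are those of the comparison with young mice, treatment was not followed by a detectable change. Hba-a1 differed by -0.0046 ± 0.291, Hbb-bs by 0.07 ± 0.287, Hbb-bt by 0.31 ± 0.320 and Alas2 by 0.08 ± 0.292 (treated minus untreated, SE, n = 6 against 6), with limma adjusted p between 0.815 and 0.999. The interval for Hbb-bs was 0.684-fold to 1.62-fold. No gene of 16517 (0%) was called by limma, 1192 had an unadjusted p under 0.05, edgeR called 0 and DESeq2 called 2; of the 6 members, 0 had an unadjusted p under 0.05 with any of these tools. All 12 meningeal fibroblast markers stood lower in treated old mice, by a median of -0.47, 2 with an unadjusted p under 0.05, and 8 of the 10 hippocampal neuron markers stood lower, by a median of -0.18 over the list; none was called, and their part was not tested.

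Untreated APP/PS1 mice and non-carrier littermates gave the lowest adjusted p-values for these genes. All 6 stood lower in APP/PS1 mice, by a median of -0.50 on the log2 scale against a median of 0.0010 over all genes tested, and 0 of 6 passed limma's test, where 8 of 16475 genes (0.0486%) were called. Alas2 stood at -0.63 ± 0.269 (SE, n = 6 against 6, limma adjusted p = 0.446), with an interval of 0.430-fold to 0.964-fold. Hba-a1 stood at -0.46 ± 0.183 (limma adjusted p = 0.405), Hbb-bs at -0.35 ± 0.192 (adjusted p = 0.574) and Hbb-bt at -0.56 ± 0.286 (adjusted p = 0.539). The groups overlapped for all 6 genes. Unadjusted p-values were under 0.05 for 3 of the 6 with limma and with DESeq2 and for 2 with edgeR, where limma gave such a p to 1677 of the 16475 genes (10.2%), and Hba-a1 and Hba-a2 count nearly the same reads. Markers of border tissue stood lower in the same comparison: all 16 choroid plexus markers tested, by a median of -0.97, and all 12 meningeal fibroblast markers, by a median of -0.88, with unadjusted p under 0.05 for 8 and 7 of them and none called. Of the 10 hippocampal neuron markers, 7 stood lower, by a median of -0.40 over the list, and none was called. Untreated APP/PS1 female 1, low in the neuron markers, enters these values. The part of any of these marker lists in the differences of the 6 genes was not tested.

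The Alas2 difference moved with 1 library. Without untreated APP/PS1 female 1, Alas2 stood at -0.83 (limma adjusted p = 0.169), and the groups still overlapped in the normalized counts tested, with 69.1 in the highest of the 5 remaining APP/PS1 libraries and 67.3 in the lowest littermate. Without that library Hba-a1 stood at -0.42 and Hbb-bs at -0.31. Weighting the libraries by their fit, with limma's array weights, gave -0.91 and an adjusted p of 0.0439 for Alas2, a setting under which 548 genes were called; it was the only call of any of the 6 genes among the fits run in any comparison.

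In APP/PS1 mice, treatment left all 6 genes 0.18 to 0.65 higher on the log2 scale, with no call. Alas2 stood at 0.63 ± 0.297 (SE, n = 5 against 6), Hbb-bt at 0.65 ± 0.320, Hba-a1 at 0.44 ± 0.305 and Hbb-bs at 0.18 ± 0.309, and limma's adjusted p was 0.997 for each. Their 95% intervals all included 0 and ran from 0.983-fold to 2.42-fold for Alas2. With DESeq2, 1 of the 6 had an unadjusted p under 0.05. Of 16124 genes tested 0 (0%) were called by limma, 477 had an unadjusted p under 0.05, edgeR called 0 and DESeq2 called 8. Without treated female 2, the highest library of its group, Hba-a1 stood at 0.11 and Hbb-bs at -0.14. Without untreated APP/PS1 female 1, Alas2 stood at 0.77, Hba-a1 at 0.40 and Hbb-bs at 0.13 (limma adjusted p = 0.999 for each). This comparison shares its untreated APP/PS1 libraries with the one against littermates, so the opposite signs of the differences are not separate observations. All 17 choroid plexus markers stood higher in treated than in untreated APP/PS1 mice, by a median of 2.48, 12 with an unadjusted p under 0.05 and none called, and their part was not tested.

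The effect of treatment was also set against itself in APP/PS1 and in old mice. In a joint fit, APP/PS1 minus old, the difference of effects was 0.45 ± 0.454 for Hba-a1, 0.11 ± 0.453 for Hbb-bs, 0.34 ± 0.468 for Hbb-bt and 0.54 ± 0.429 for Alas2 (SE), with limma adjusted p of 0.918 or more. Without untreated APP/PS1 female 1 it was 0.69 ± 0.415 for Alas2, 0.40 ± 0.468 for Hba-a1 and 0.06 ± 0.465 for Hbb-bs, with limma adjusted p of 0.971 or more. Males stood higher than females by 0.26 to 0.43 on the log2 scale for all 6 genes in the comparison of old and young, and for 5 of 6 genes in that of APP/PS1 mice and littermates, with no call (adjusted p of 0.720 or more in both). No interaction of sex and group was called. The lowest p among the interactions named here was that of Alas2 between APP/PS1 mice and littermates, -1.11 for males minus females (limma adjusted p = 0.847), and untreated APP/PS1 female 1 enters it.

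**Figure D3:**
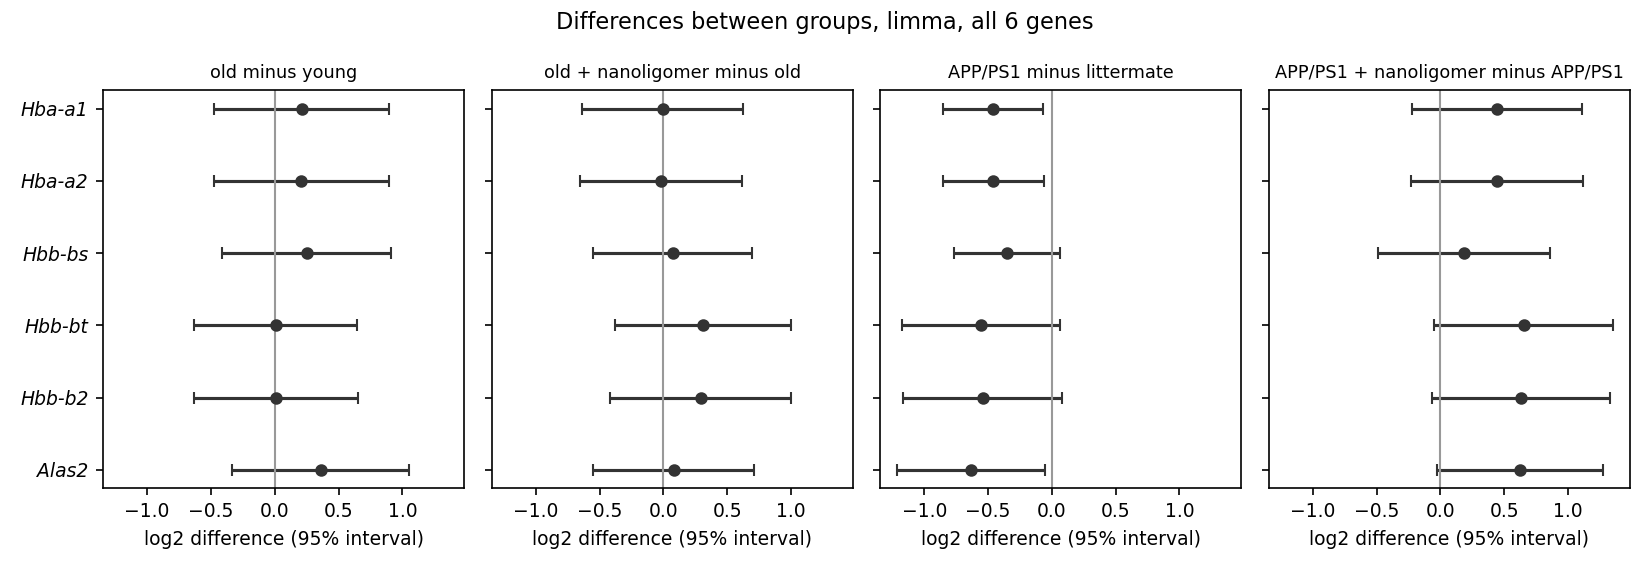
Difference between groups for each of the 6 genes in the 4 comparisons, as log2 difference with its 95% interval from limma. The intervals of Hba-a1, Hba-a2 and Alas2 lie below 0 in APP/PS1 minus littermate, where no adjusted p is below 0.405.

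The residual SD of the 6 genes was 0.60 to 0.65 on the log2 scale in the comparison of old and young, at the 86.0th to 88.0th percentile of all genes tested, and 0.37 to 0.51 in that of APP/PS1 mice and littermates. For Hba-a1, the median residual SD of genes at a like level was 0.13 in the first of these and 0.17 in the second. For Hbb-bt and Alas2 that median was 0.28 in the first, below their own 0.60 and 0.65. In the second it was 0.52 and 0.48, above their own 0.49 and 0.37.

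The 6 genes shared much of this spread between libraries. After the mean of each group and sex was removed, Hba-a1 and Hbb-bs deviated together over 35 libraries with Pearson r = 0.977 and Spearman rho = 0.976. Their deviations had the same sign in 33 of the 35. Treated APP/PS1 females 1 and 2 have mirrored deviations (-0.865 and 0.865 for Hba-a1), so they are not separate observations. Hbb-bs correlated with Hbb-bt at r = 0.867 (rho = 0.856) and with Alas2 at r = 0.822 (rho = 0.830). Over the 15 pairs, permutation p-values adjusted by Benjamini-Hochberg were 1e-05 throughout, the smallest that 100000 resamples can give. The deviations were shuffled over all libraries although they cancel within each group and sex, so the permutation p-values are approximate. The pairs of Hba-a1 with Hba-a2 and of Hbb-bt with Hbb-b2 rest on the same reads.

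The correlations were also taken without the 2 libraries whose deviations of the first gene of the pair lay farthest from the median. The means of group and sex were not taken anew. The libraries left out therefore still enter the deviations of the others, and these values cannot settle their part. Without young female 1 and treated APP/PS1 female 1, r between Hba-a1 and Hbb-bs was 0.972. Without young female 1 and APP/PS1 male 1, r between Hbb-bs and Alas2 was 0.802.

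Correlations of Alas2 with the globins were higher in the aging arm than in the transgenic arm, a difference that was not tested. With Hbb-bs its r was 0.959 (rho = 0.967) over the 18 aging-arm libraries and 0.539 (rho = 0.532) over the 17 transgenic-arm libraries, where its counts were lower. Leaving out untreated APP/PS1 female 1 brought the latter to 0.724 (rho = 0.750, n = 16). With Hbb-bt, r of Alas2 was 0.924 in the aging arm and 0.313 in the transgenic arm (permutation p = 0.221, n = 17), and 0.366 there without that library. For Hbb-bt and Hbb-bs the values were 0.973 and 0.658, and for Hba-a1 and Hbb-bs 0.976 and 0.978.

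**Figure D4:**
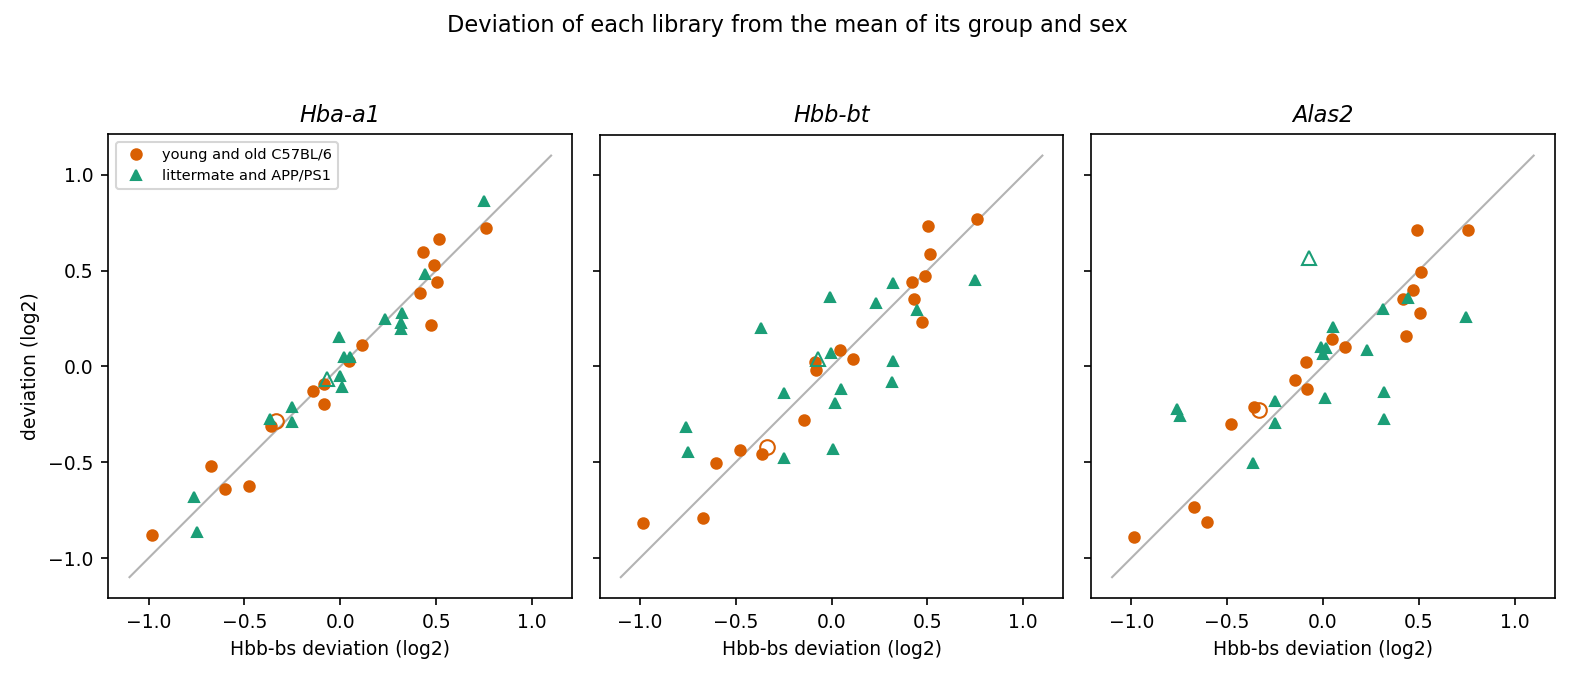
Deviation of each library from the mean of its group and sex, on the log2 scale, for Hba-a1, Hbb-bt and Alas2 against Hbb-bs; circles are the aging arm, triangles the transgenic arm, open symbols young male 1 and untreated APP/PS1 female 1, and the line marks equal deviations. Hba-a1 follows the line (r = 0.977), and untreated APP/PS1 female 1 lies above it for Alas2.

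Beyond the 6 genes and Hbb-b1, which repeats the reads of Hbb-bs, no gene was called as varying with Hbb-bs. Of the 15729 genes left, 0 (0%) had a slope called by limma and 617 an unadjusted p under 0.05, so none qualified for naming by the fixed rule. The gene lists below were compared with the same slope, where 46.0% of all genes were positive, and with the group comparisons.

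Most erythroid markers other than the haemoglobin genes and Alas2 stood at low levels. Of 15 erythroid markers, 13 were in the tables and 12 had a median under 1 CPM; the summed level of the 13 was 2.23 to 6.82 CPM in young, 3.54 to 7.43 in old and 2.42 to 4.72 in treated old mice, and 1.95 to 4.80 in littermates, 1.88 to 3.19 in untreated APP/PS1 mice and 1.86 to 3.81 in those treated. Icam4, a red cell adhesion protein, supplied most of it, with a median of 1.82 CPM in young mice. Slc4a1, the anion exchanger of the red cell membrane, held 0.194 to 2.98 in young mice, 0.116 to 1.90 in old mice and 0.456 or less in APP/PS1 mice. Klf1, an erythroid transcription factor, had a median of 0.185 in young mice. Gata1 and Rhag had reads in 7 and 5 of 35 libraries. Only Slc4a1 and Icam4 passed the filter for the slope on Hbb-bs, at 0.45 ± 0.198 and 0.18 ± 0.156 (SE), with a limma adjusted p of 0.997 for both. Slc4a1 had an unadjusted limma p of 0.0332 (r = 0.427).

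The embryonic globins Hbb-bh1 and Hbb-bh2 had no read in any of the 35 libraries, which allows up to 3 reads in each, and Hba-x had 1 read in 1 library. The embryonic gene Hbb-y had 1 to 11 reads in 7 of the 35 libraries, at most 0.239 CPM, and no read in the others. Among the globins of other tissues, the cytoglobin gene Cygb held 71.5 to 140 CPM and the neuroglobin gene Ngb 0.612 to 31.6. Of the list of other globin genes, 5 were tested against Hbb-bs, 2 had a positive slope and none was called.

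None of the other genes of haem synthesis was called as varying with Hbb-bs. Of the 12 genes of this list in the tables, 8 had a positive slope on Hbb-bs, with a median r of 0.0654, and 0 had an unadjusted p under 0.05. The most abundant were Fech, which inserts iron into the ring, Alas1, the housekeeping counterpart of Alas2, and Cpox. Alas1 held a median of 55.9 CPM in young mice and 55.0 in APP/PS1 mice, where Alas2 held 4.83 and 1.63. Between APP/PS1 mice and littermates Alas1 stood at -0.04 ± 0.0806 and Fech at -0.05 ± 0.0704 (SE; limma adjusted p of 0.861 or more). None of the 12 was called in any of the 4 comparisons. Among genes abundant in young red cells that brain also expresses, 13 of 16 had a positive slope, with a median r of 0.148. Of these genes, 1 had an unadjusted p under 0.05 and none was called. Tmcc2, Sptb and Ftl1 were the most abundant.

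Markers of other blood cells were read beside Hbb-bs. Of 16 neutrophil and monocyte markers, 15 were in the tables, 13 had a median under 1 CPM and 6 passed the filter; all 6 had a positive slope, 4 of them with an unadjusted p under 0.05. S100a8, a calcium-binding protein abundant in neutrophils, had the lowest p of these, with a slope of 0.90 ± 0.228 (r = 0.631, p = 0.000545, limma adjusted p = 0.779), and was named after its value was seen. The most abundant, Csf3r, Mmp9 and Lcn2, had slopes of 0.02, 0.08 and 0.86. The summed level of the list was 11.2 to 43.7 CPM in young, 16.4 to 46.9 in old and 17.6 to 51.5 in treated old mice. It was 12.5 to 16.9 in littermates, 9.58 to 35.5 in untreated APP/PS1 mice and 8.74 to 12.98 in those treated. Of 5 platelet markers that passed the filter, 4 had a positive slope and 0 an unadjusted p under 0.05; Gp1bb, a platelet receptor subunit, was the most abundant. Of the lymphocyte markers only Cd4 passed the filter, with a slope of -0.09 ± 0.568.

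No marker of vessel or border cells was called with Hbb-bs. Of 18 brain endothelial markers, 15 had a positive slope, with a median of 0.05 and 1 unadjusted p under 0.05 (Flt1, a vascular growth factor receptor, slope 0.12, r = 0.395). Slc2a1 and Ptprb, also among the most abundant, had slopes of 0.05 and -0.0016. Pericyte and smooth muscle markers were positive in 9 of 14. Meningeal fibroblast markers were positive in 3 of 12. Choroid plexus markers were positive in 0 of 17, with a median slope of -0.53, 1 unadjusted p under 0.05 and none called. The summed choroid plexus level differed widely within groups, from 41.2 to 4396 CPM in young, 105 to 4317 in treated APP/PS1 and 46.8 to 148 in untreated APP/PS1 mice. Ttr, the transthyretin gene and the most abundant of the list, alone held 5.37 to 3747 in young mice. Their part in the haemoglobin levels was not tested.

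In the genes that clear haemoglobin and store iron, 8 of 14 had a positive slope, with a median of 0.01, 1 unadjusted p under 0.05 and none called. Fth1, the ferritin heavy chain, Lrp1 and Trf, transferrin, were the most abundant, and Fth1 held a median of 2755 CPM in young and 3260 in old mice. Of the list for erythropoietin, hypoxia and nitric oxide response, 9 of 13 had a positive slope, 2 with an unadjusted p under 0.05, and none was called; Epo itself had reads in 11 of 35 libraries.

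**Figure D5:**
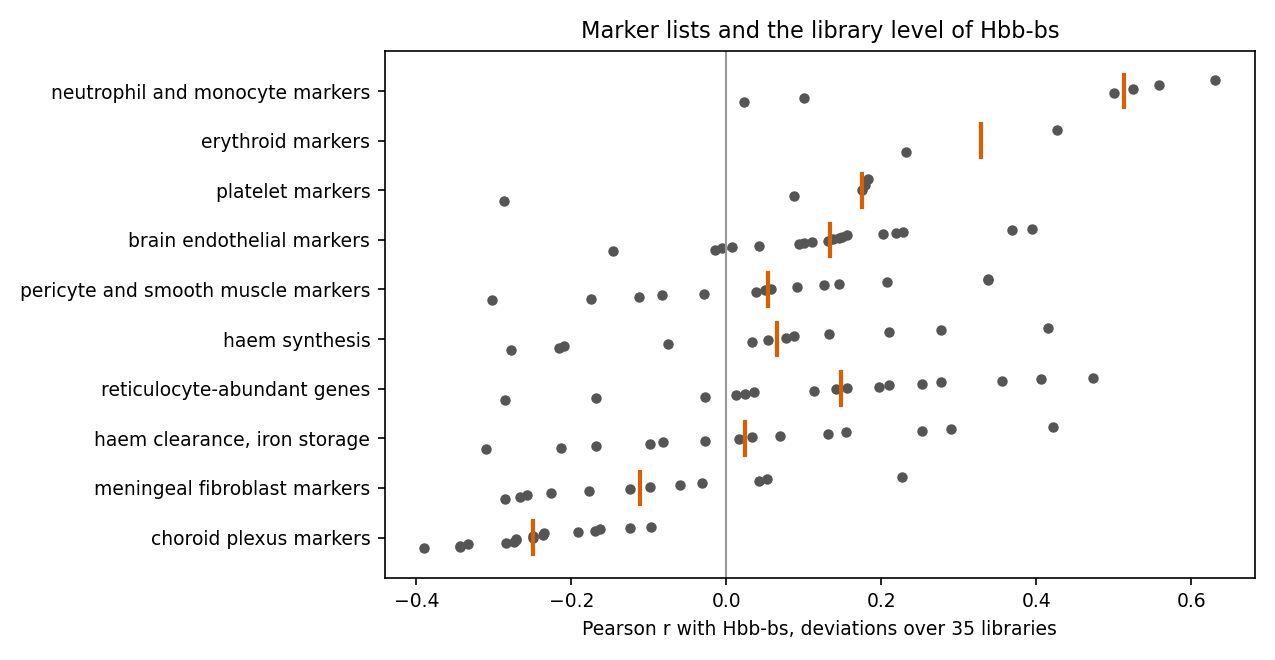
Pearson r with Hbb-bs of each tested gene of 10 lists (dots), from deviations over 35 libraries, with the median of each list as a bar. All 6 neutrophil and monocyte markers are positive and all 17 choroid plexus markers negative; no gene was called.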

How the data were processed

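Hippocampal RNA was read by polyA RNA sequencing in 36 libraries, per the labels' protocols. The authors deposited 4 tables of normalized signal, which are read counts divided by size factors; STAR, DESeq2 and mm10 are named per the submitters' processing notes, while how reads were counted, and on which annotation, is not given in the sources used here. Each table holds 12 libraries, and 12 libraries stand in 2 tables. Whole reads were recovered from the steps of the values (100% of values within 0.001 reads), and libraries in 2 tables gave identical reads. The labels do not say that each library is a separate animal, so p-values measure the spread between these samples, which may be technical. Batches are not given in the labels.

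The main test was limma 3.58.1 (with trend) on log2(normalized count + 1), genes with a mean of at least 10, sex as covariate and Benjamini-Hochberg adjustment over all genes, called at 0.05. It was tested on simulated data. The treated APP/PS1 library of female 3 was left out for low depth. Slopes on Hbb-bs used log2(CPM + 0.5) with a mean for each group and sex. Alternatives were edgeR 4.0.16 and DESeq2 1.42.0 on recovered reads, other scalings, pseudocounts, filters, weights and leaving out each library. The column name of 1 treated APP/PS1 male matched its group but no title. It was taken as the third male, the only sample of that group left without a column. It entered the replicate block and the check of replicate labels as such. Members and lists were chosen with earlier results of these data known. Named were the 6 members, called genes among the slopes and up to 3 most abundant genes of each list. Reads cannot be assigned with certainty between near-identical globin genes.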

Additional observations from a re-analysis of the deposited data

Results flagged for a closer look

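Among 36 combinations of gene and group, 1 held a library that stood apart by Dixon's test at the 95% level, which chance gives in about 1 of 20 groups: Alas2 in untreated APP/PS1 female 1, at 3.34 CPM, where the nearest of the other 5 libraries held 1.83 and the lowest 1.06. The gap was 66.4% of the range. The same library had 67.7 CPM of Slc17a7, the lowest of the 35. Its Hba-a1 and Hbb-bs levels, 17.4 and 18.7 CPM, lay inside the range of its group.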

How the results depend on the processing

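Of 564 alternative values for single genes in the comparisons, 511 kept their direction and their side of the threshold, 52 changed sign without a call and 1 became a call: Alas2 between APP/PS1 mice and littermates under array weights, -0.91, which raised the number of members called there from 0 to 1. The number of members called was 0 in every other fit run. No alternative, 7 in all, called a gene on the slope.

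Signs changed where estimates lay near 0 or hung on 1 library. Between old and young, Hbb-bt and Hbb-b2 stood at -0.0080 and -0.0037 with CPM scaling, -0.094 and -0.085 with array weights, -0.038 and -0.039 with edgeR and -0.037 and -0.037 with DESeq2; leaving out each library in turn gave -0.17 to 0.18 and -0.17 to 0.19. In treated against untreated old mice, Hba-a1 and Hba-a2 stood at 0.0029 and 0.0011 with array weights, and leaving out each library gave -0.22 to 0.18 and -0.23 to 0.16, Hbb-bs -0.15 to 0.22 and Alas2 -0.13 to 0.25. In treated against untreated APP/PS1 mice, leaving out each library gave -0.14 to 0.36 for Hbb-bs. With the shallow treated APP/PS1 female, which has no read from these genes, the differences were -1.14, -1.14, -1.38, -0.32, -0.34 and -0.43 in the order Hba-a1, Hba-a2, Hbb-bs, Hbb-bt, Hbb-b2, Alas2, and the differences of treatment effects -1.13, -1.12, -1.45, -0.63, -0.64 and -0.51.

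Whether replicate labels pair the samples is not given. Deviations of same-labelled samples correlated at -0.25 to 0.29, and as they are taken from means of few libraries they cannot settle this. A replicate block changed no call of a member; with the block, Alas2 between APP/PS1 mice and littermates stood at -0.63 (limma adjusted p = 0.488), and 1 gene was called between old and young in place of 6. Whole-table counts moved by 1.5 times or more in other fits too: between APP/PS1 mice and littermates, 8 calls became 548 with array weights, 248 with DESeq2, 12 with no filter, 21 without APP/PS1 female 1 and 256 without APP/PS1 female 3; between old and young, 6 became 14 with array weights, 121 with DESeq2, 9 with no sex term, 11 without old female 1 and 4 without young female 1. Between treated and untreated mice, 0 became 2 with DESeq2 in old mice, and 1 with no filter and 8 with DESeq2 in APP/PS1 mice. The cause was not tested. Depth limits Hbb-bt and Alas2 most, at 26 and 38 reads in their lowest libraries. The joint fit without untreated APP/PS1 female 1 was chosen after seeing the data.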
